A study of Mus musculus with 8 samples.

Results

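Smooth muscle genes were followed in RNA-seq libraries of the whole mouse uterus at postnatal day 10 (PD10). A list of 35 genes was used, chosen by name as genes of the contractile apparatus, its anchorage, its regulators, its ion channels and the coupling between muscle cells, and all 35 were among the 16658 genes tested of 27179 counted. The study asked which transcripts differ after deletion of *Ezh2*, which encodes the methyltransferase subunit of Polycomb repressive complex 2, in uterine mesenchyme. The 4 control uteri carried floxed *Ezh2* on both alleles (Ezh2 f/f), and the 4 *Ezh2 Amhr2*-Cre cKO uteri carried the same alleles and the *Amhr2*-Cre driver (labelled Acre). The mice were on a C57BL/6/129SvEv background, and both genotypes carried the floxed allele. The *Amhr2* driver is active in cells that derive from the mesenchyme of the female tract, and whole uterus also holds epithelial and other cells that it does not target. Whether any library pools animals is not stated. The p-values below set the difference between genotypes against the spread between libraries of the same genotype in these 8 samples.

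Smooth muscle of the uterus, the myometrium, develops from mesenchyme around the Müllerian duct and forms layers of muscle around the stroma. Its contraction runs through phosphorylation of myosin light chains, which lets smooth muscle myosin pull on actin filaments that are anchored at dense bodies and at the membrane. Many of its genes are driven by serum response factor (SRF), which binds a DNA element called the CArG box and works with coactivators of the myocardin family.

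The smooth muscle genes as a group were at a close level in both genotypes. In edgeR's quasi-likelihood test with Benjamini-Hochberg adjustment over all genes, 0 of 35 passed an adjusted p-value of 0.05, where 5.34% of all genes tested did (2.62% higher and 2.71% lower in cKO), and 0 of 35 were also past 2-fold, where 1.3% of all genes were. The smallest adjusted p-value among them was 0.0880, for *Ldb3*. At an unadjusted p under 0.05 there were 7 (20%) against 21.2% of all genes, namely *Actg2*, *Tpm2*, *Ppp1r14a*, *Des*, *Ldb3*, *Gja1* and *Kcnma1*. DESeq2 called 2 of 35 (*Des* and *Ldb3*), where it called 9.04% of all genes, and limma-voom called 0, where it called 4.98%. Log2 fold changes of cKO against control ran from -0.20 in *Kcnma1* to 0.53 in *Ldb3*, with a median of 0.04 against 0.00 over all genes. The change was above 0 in 24 of the 35 (68.6%) against 50.1% of all genes. This share was 48.6% without control replicate 3 and 80% without control replicate 2. Scaling the libraries by the smooth muscle genes themselves, which centres their changes near 0 by construction, also gave 48.6%.

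The data also bound the size of any difference. The 95% interval of the fold change lay within 1.5-fold either way for 30 of the 35 genes (85.7%, against 71.2% of all genes) and within 2-fold for all 35 (85.9% of all genes). The 5 with wider intervals were *Ppp1r14a*, *Ldb3*, *Cacna1h*, *Pln* and *Oxtr*. Intervals also depend on the level of a gene, and the shares over all genes are not matched for level. Control means of the 35 ran from 1.80 CPM (*Oxtr*) to 3690 CPM (*Acta2*), while the filter kept genes from 0.2 CPM. Only *Ldb3* had no overlap between the libraries of the genotypes, 1 of 35 (2.86%), with the cKO libraries above, where 12.3% of all genes had none (5.9% with cKO above and 6.43% with cKO below). In whole tissue, fewer muscle cells and less RNA per muscle cell cannot be told apart.

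**Figure D1:**
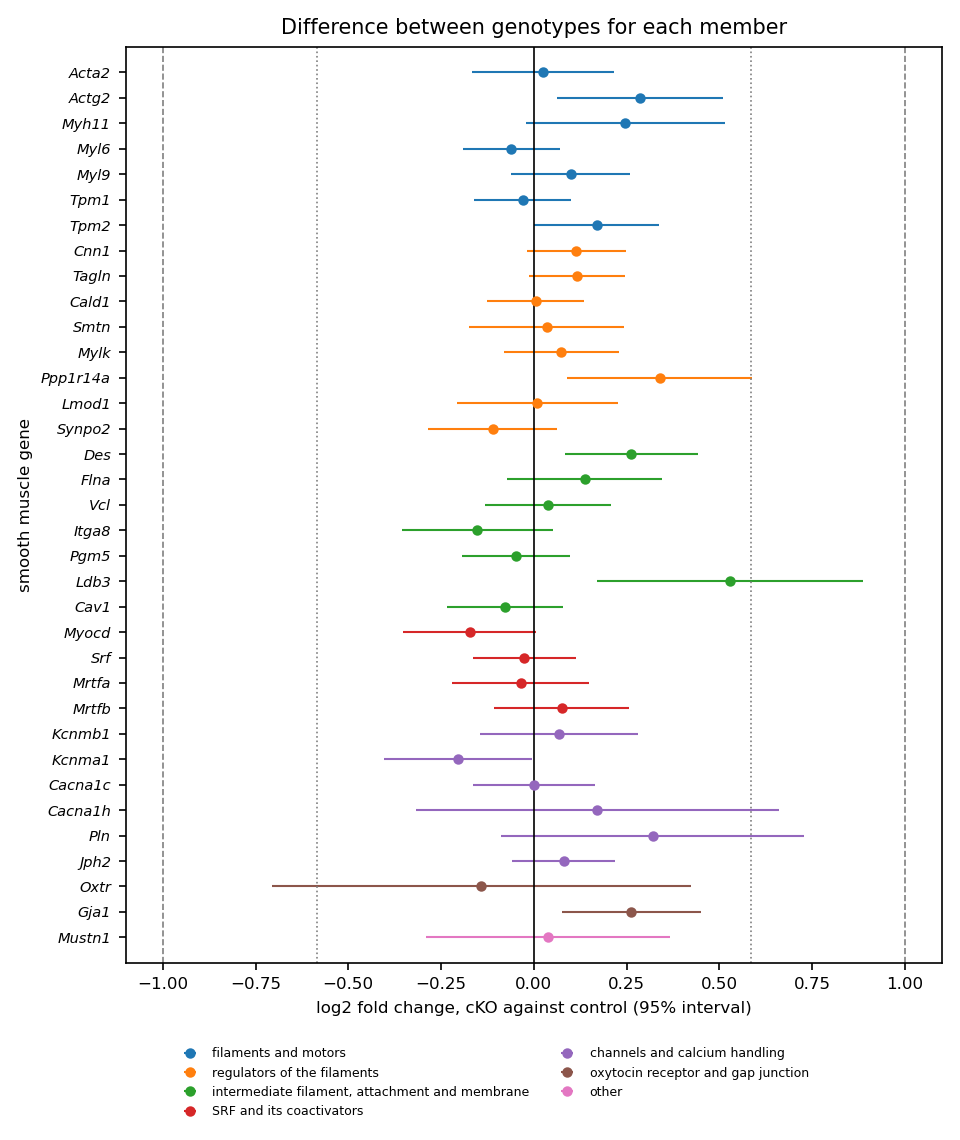
Log2 fold change of cKO against control for each of the 35 smooth muscle genes (points) with its 95% interval (lines), coloured by role, with dotted lines at 1.5-fold and dashed lines at 2-fold either way. All 35 intervals lie inside the dashed lines, and those of *Ppp1r14a*, *Ldb3*, *Cacna1h*, *Pln* and *Oxtr* pass a dotted line.

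Libraries held 26234429 to 36685807 counts in control and 25287141 to 32658315 in cKO uteri, so that 3 counts, taken as the upper limit for a gene with no counts, are worth 0.0818 to 0.119 CPM when counts are scaled to the library total alone. All gene levels are CPM scaled to that total after correction by edgeR's TMM factor (0.986 to 1.02 in these libraries). *Ezh2* was at 49.5, 40.5, 54.7 and 35.4 CPM in the controls and at 30.4, 38.0, 40.7 and 38.0 CPM in cKO uteri. The genotypes overlapped for it, with a log2 fold change of -0.29 (SE 0.13, adjusted p = 0.247 in edgeR). Counts over the whole gene and the whole uterus take in cells without Cre and transcripts of the recombined allele. Within the controls, replicate 2 was the highest of its 4 libraries for 30 of the 35 genes and replicate 3 the lowest for 23. Among all 8 libraries, control replicate 2 was highest for 20 genes and control replicate 3 lowest for 16. The median log2 deviation of the genes from their means over the libraries was 0.15 in control replicate 2 and -0.16 in control replicate 3. Sums of several marker lists moved the same way and that of the epithelium did not. Marker genes of vascular mural cells summed to 1847 CPM in control replicate 2 and 1332 CPM in control replicate 3, those of stromal fibroblasts to 13260 and 10210 CPM, and those of endothelium to 838 and 654 CPM. Epithelial markers summed to 1275 CPM in control replicate 2, the lowest of the 8 libraries, and to 1526 CPM in control replicate 3. Their part in the spread was not tested. The median log2 fold change of the 35 genes was 0.12 without control replicate 2 and -0.01 without control replicate 3. Without replicate 2 the values of *Pgm5*, *Srf*, *Mrtfa* and *Oxtr* turned from below to above 0 and lay between 0.0003 and 0.04. Without replicate 3 those of *Acta2*, *Cald1*, *Smtn*, *Lmod1*, *Vcl*, *Cacna1c* and *Mustn1* turned from above to below 0 and lay between -0.06 and -0.01. None of these 11 genes passed the adjusted p-value in edgeR with or without that library, and genes that passed without one are given below with both values.

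**Figure D2:**
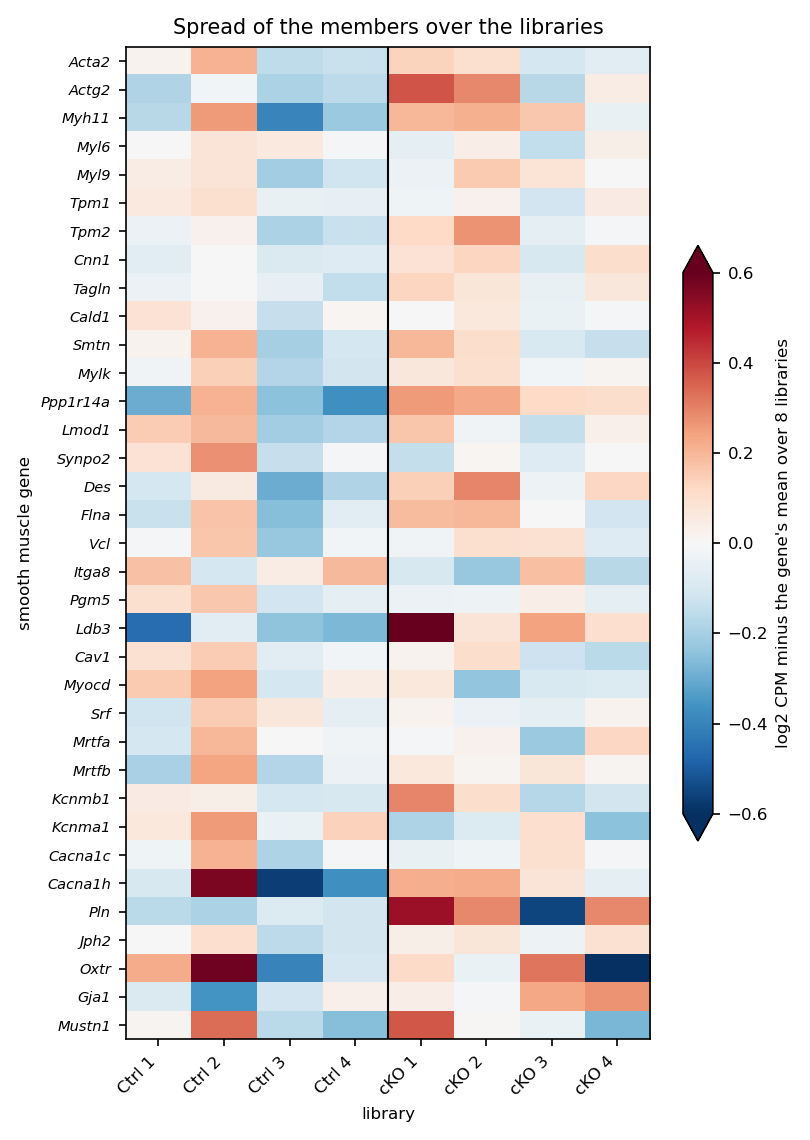
Log2 CPM of each smooth muscle gene (rows) in each library (columns) minus the gene's mean over the 8 libraries, with the black line between control (Ctrl) and cKO libraries. The column of control replicate 2 is above the mean (red) for most genes and that of control replicate 3 below it (blue), and colours saturate beyond 0.6.

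All 35 genes were detected in every library. The count was lowest for *Oxtr*, at 29 to 67 per library, and highest for *Acta2*, at 93400 to 123023. Together they took 1.92% to 2.31% of the counts in controls (mean 2.08%, SD 0.172) and 2.08% to 2.33% in cKO uteri (mean 2.20%, SD 0.136). These ranges overlapped. Divided by exon length, the control level ran from 1680 CPM per kb for *Acta2* through 1063 for *Myl9*, 690.3 for *Tagln* and 442 for *Myl6* down to 0.441 for *Ldb3* and 0.375 for *Oxtr*, a 4480-fold span. In this order, 20 of 34 pairs of neighbours overlapped between libraries of the control group and 14 did not. *Acta2* and *Myl9* overlapped with no other gene, while *Tpm1* and *Cnn1*, at 189 and 188 CPM per kb, could not be ordered. In cKO uteri 26 of the 35 genes held the same rank, 6 moved by 1 place and no gene moved by more than 2.

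**Figure D3:**
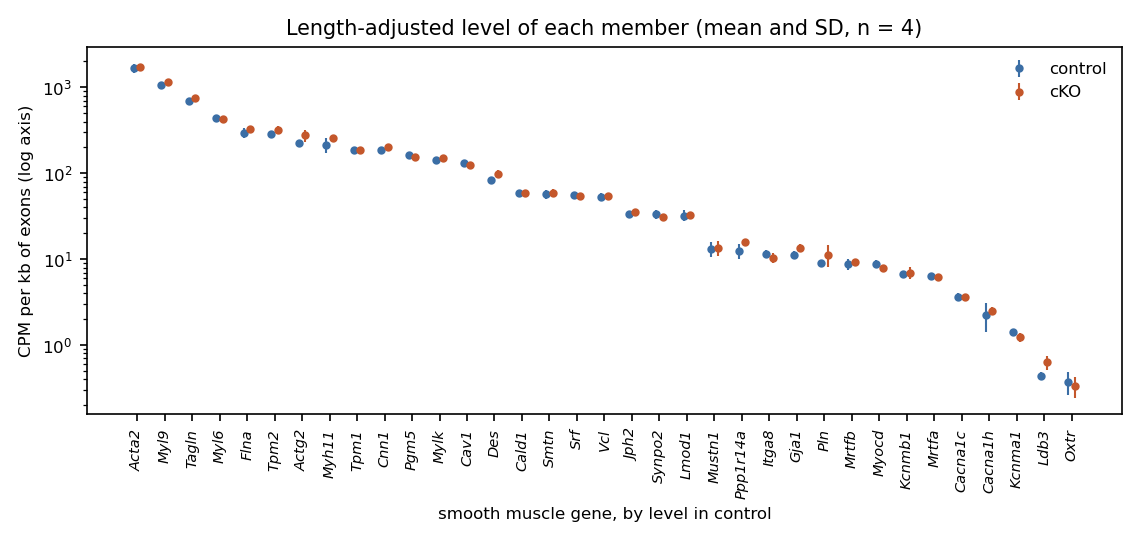
Mean CPM per kb of exons with its SD (n = 4 libraries) for each smooth muscle gene in control (blue) and cKO (orange) uteri, on a log axis and ordered by the control level. The order runs from *Acta2* (1680 CPM per kb in controls) to *Oxtr* (0.375), and the points of the genotypes lie close together for nearly all genes.

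Filaments and motors come first. *Acta2* (Entrez 11475, chr19:34240336-34255585 of GRCm38) encodes smooth muscle alpha actin, the most widely used marker of smooth muscle. Its level was 3764, 4287, 3332 and 3377 CPM in controls and 4064, 3964, 3443 and 3548 CPM in cKO uteri. Means of 3690.1 ± 443 and 3755 ± 305 CPM (SD, n = 4 each) differed by 0.03 on the log2 scale (SE 0.09, adjusted p = 0.902 in edgeR), and the cKO libraries lay inside the control range. The ratio of cKO to control was 1.02, with a 95% interval of 0.891 to 1.16.

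*Actg2* (Entrez 11468, chr6:83512909-83536251) encodes the gamma actin of visceral smooth muscle. It was at 340.2, 382, 338 and 346 CPM in controls and at 501, 470.5, 344 and 398 CPM in cKO uteri. In cKO, 3 libraries were above every control and replicate 3 lay among the controls. Its log2 fold change was 0.29 (SE 0.10, adjusted p = 0.133 in edgeR), and 0.38 without cKO replicate 3, with an adjusted p of 0.0296. Over all alternatives its adjusted p lay between 0.0296 and 0.769. The coding sequences of *Acta2*, *Actg2* and the skeletal actin gene are near-identical, and how the counting treated reads that match several of them is not given, so each actin level is uncertain to that extent.

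*Myh11* (Entrez 17880, chr16:14194527-14292188) encodes the heavy chain of smooth muscle myosin. Control libraries were at 1574, 2110.1, 1344 and 1515 CPM and cKO libraries at 2029, 2046, 1975 and 1714 CPM. Control replicate 2 was the highest of all 8, and the other 3 controls were below every cKO library. The log2 fold change was 0.25 (SE 0.12, adjusted p = 0.271 in edgeR). It was 0.39 without control replicate 2, with an adjusted p of 0.0114, the lowest over the alternatives, which reached 0.997. The remaining genes of this role, the light chains *Myl6* and *Myl9* and the tropomyosins *Tpm1* and *Tpm2* that lie along actin, had log2 fold changes from -0.06 (*Myl6*) to 0.17 (*Tpm2*). Of the 7 filament and motor genes, 5 had values above 0 and 2 below, with a median of 0.10 and 7 of 7 intervals within 1.5-fold.

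Regulators of the filaments had 7 of 8 values above 0, where 50.1% of all genes were, a median of 0.05 on the log2 scale and 0 of 8 past the adjusted p-value. Without control replicate 3, 4 of the 8 were above 0. *Cnn1* (Entrez 12797, chr9:22099221-22109221), which encodes calponin, an actin-binding inhibitor of the myosin ATPase, was at 511, 536, 503 and 507 CPM in controls and 568, 584, 499.5 and 576 CPM in cKO uteri. Its cKO replicate 3 was the lowest of the 8 libraries and the other 3 cKO libraries were the highest, with a log2 fold change of 0.11 (SE 0.06, adjusted p = 0.303 in edgeR). *Tagln* (Entrez 21345, chr9:45929628-45936058) encodes transgelin, an actin-bundling protein of early smooth muscle. It was at 1392, 1429.9, 1379 and 1289 CPM in controls and at 1563, 1502, 1386 and 1497 CPM in cKO uteri. Again cKO replicate 3 lay among the controls and the other 3 above them, with a log2 fold change of 0.12 (SE 0.06, adjusted p = 0.288 in edgeR).

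*Ppp1r14a* encodes CPI-17, an inhibitor of myosin phosphatase that raises the calcium sensitivity of contraction. It is described here after its values were seen. Controls were at 15.6, 22.1, 16.2 and 14.9 CPM and cKO libraries at 22.9, 22.4, 20.9 and 20.6 CPM. Control replicate 2 reached into the cKO range while the other 3 controls were below it. Between genotypes the log2 fold change was 0.34 (SE 0.12, adjusted p = 0.111 in edgeR), and 0.48 without control replicate 2, with an adjusted p of 0.00429, and over all alternatives the adjusted p reached 0.927. The kinase *Mylk*, which phosphorylates the light chain, averaged 1598 ± 156 CPM over the controls and 1682 ± 58.4 CPM over the cKO libraries (SD, n = 4 each). The actin-binding genes *Cald1*, *Smtn*, *Lmod1* and *Synpo2* had log2 fold changes from -0.11 (*Synpo2*) to 0.03 (*Smtn*).

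**Figure D4:**
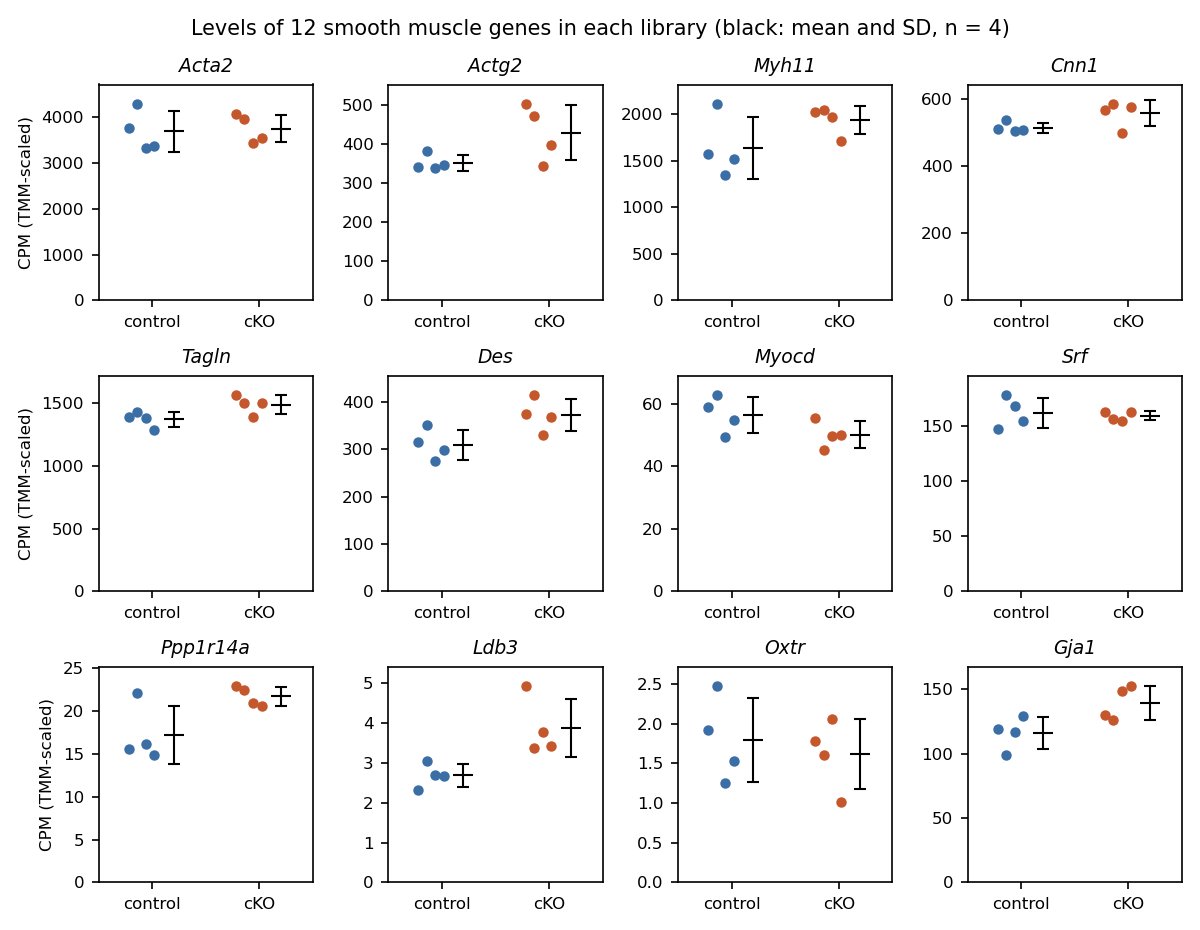
CPM of 12 smooth muscle genes in each of the 4 control (blue) and 4 cKO (orange) libraries, in replicate order from left to right, with the mean and SD of each group in black and every axis starting at 0. The groups overlap for 11 of the genes, and only for *Ldb3* do all cKO libraries lie above all controls.

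Among genes of the intermediate filament, attachment and membrane, 4 of 7 values were above 0, with a median log2 fold change of 0.04. *Des* (Entrez 13346, chr1:75360292-75368579) encodes desmin, the muscle intermediate filament that links dense bodies. It was at 314, 351, 276 and 299 CPM in controls and 373, 414, 331 and 369 CPM in cKO uteri. Control replicate 2 was above cKO replicate 3, and otherwise the genotypes were separate. Means were 309.8 ± 31.7 and 372 ± 34.1 CPM (SD, n = 4 each), a ratio of 1.20 with a 95% interval of 1.06 to 1.36. The log2 fold change of 0.26 (SE 0.08) had an adjusted p of 0.0889 in edgeR, 0.0394 in DESeq2, 0.0162 in edgeR with a replicate block and 0.0263 in edgeR without control replicate 2. It was 0.0943 in limma-voom, between 0.176 and 0.234 without each of control replicates 1, 3 and 4 and cKO replicates 1 and 2, and up to 0.722 over all alternatives.

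*Ldb3* (Entrez 24131, chr14:34526699-34590314) encodes a PDZ and LIM domain protein of the Z-disc in striated muscle and was the largest difference of the list, described after its values were seen. Controls were at 2.33, 3.06, 2.71 and 2.66 CPM and cKO libraries at 4.93, 3.38, 3.79 and 3.43 CPM, without overlap. The log2 fold change was 0.53 (SE 0.17, adjusted p = 0.0880 in edgeR, and from 0.0485 in DESeq2 to 0.903 over the alternatives), and its level per kb was the next to lowest of the 35. Skeletal muscle markers had 3 of 14 tested genes past the adjusted p-value (21.4%, against 5.34% of all genes), *Myh3* (log2 fold change 4.08), *Tnnt3* (0.80) and *Casq1* (0.63), all higher in cKO. *Myh3* had 0, 1, 4 and 4 counts in controls, under 0.2 CPM in each. It passed the filter through the cKO libraries alone, and the size of its change is uncertain. *Myog*, *Myod1*, *Myh8*, *Myl1*, *Pvalb* and *Chrna1* were too low to be tested. In that list 11 of 14 values were above 0, and the median log2 fold change was 0.55. For 6 of 14 (42.9%, against 5.9% of all genes), *Myh3* among them, every cKO library was above every control. The list's sum, 112 to 148 CPM in controls and 121 to 147 CPM in cKO uteri, was carried by *Acta1* and *Tnnt1*, with log2 fold changes of -0.13 and -0.01. The list's part in the level of *Ldb3* was not tested. The other attachment genes, the actin cross-linker *Flna*, the adhesion genes *Vcl*, *Itga8* and *Pgm5* and the caveolar coat gene *Cav1*, had log2 fold changes from -0.15 (*Itga8*) to 0.14 (*Flna*).

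SRF and its coactivators had 1 of 4 values above 0 (3 of 4 without control replicate 2), where 50.1% of all genes were, and 0 of 4 with an unadjusted p under 0.05 in edgeR, where 21.2% of all genes had one. *Srf* (Entrez 20807, chr17:46546838-46558267) was at 147, 178, 168 and 154 CPM in controls and 162, 156, 154 and 162 CPM in cKO uteri. The cKO libraries lay inside the control range, and the ratio of cKO to control was 0.983 (95% interval 0.893 to 1.08, adjusted p = 0.857 in edgeR). *Myocd* (Entrez 214384, chr11:65173608-65269989), which encodes myocardin, the coactivator restricted to cardiac and smooth muscle, was at 59.1, 62.8, 49.4 and 54.8 CPM in controls and 55.5, 45.1, 49.8 and 50.2 CPM in cKO uteri. Its libraries overlapped, with a log2 fold change of -0.17 (SE 0.08, adjusted p = 0.251 in edgeR). *Mrtfa* and *Mrtfb*, coactivators that enter the nucleus when free actin is used up, had log2 fold changes of -0.04 and 0.07.

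The element that SRF binds can be read in the promoters of several of these genes, and the windows below show it for *Srf*, *Myl9* and *Myl6*, for *Acta2* in a looser form and for *Ldb3*, which had the largest difference of the list. RefSeq promoters of GRCm38.p6 (250 bases before to 50 after the transcription start) were found for 30 of the 35 genes and not for *Myh11*, *Tagln*, *Actg2*, *Myocd* and *Cacna1h*. A CArG box, which is CC, then 6 bases that are each A or T, then GG, and which reads the same way on both strands, was in promoters of 5 of the 30 genes (16.7%) and of 1.81% of all 27025 genes with a promoter. The 5 were *Srf*, *Myl6*, *Myl9*, *Vcl* and *Ldb3*. With 1 inner base of another kind allowed, a form chosen after seeing the data, it was 9 of 30 (30%) against 11.3%, namely the same 5 and *Acta2*, *Cacna1c*, *Jph2* and *Mrtfa*. *Myl9* holds such a box besides its strict one. Each window is 5′ to 3′ on the strand of the gene, with the box in capitals.
*Srf*, chr17:46556220-46556259, minus strand, box 82 bases upstream of the start: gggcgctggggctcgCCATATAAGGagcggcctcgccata
*Srf*, chr17:46556200-46556239, minus strand, box 62 bases upstream: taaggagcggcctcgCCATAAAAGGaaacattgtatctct
*Myl9*, chr2:156775288-156775327, plus strand, box 161 bases upstream: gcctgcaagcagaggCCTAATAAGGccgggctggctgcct
*Myl6*, chr10:128493035-128493074, minus strand, box 50 bases upstream: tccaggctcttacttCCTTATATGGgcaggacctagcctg
*Acta2*, chr19:34255433-34255472, minus strand, box 84 bases upstream with C as the first inner base: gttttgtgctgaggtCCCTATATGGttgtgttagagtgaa
*Acta2*, chr19:34255383-34255422, minus strand, box 34 bases upstream with G inside: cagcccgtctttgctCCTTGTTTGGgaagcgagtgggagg
*Ldb3*, chr14:34588692-34588731, minus strand, box 35 and 109 bases upstream of 2 annotated starts: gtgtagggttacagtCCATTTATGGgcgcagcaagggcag

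The genes shown differ in level, from 0.441 CPM per kb for *Ldb3* and 55.9 for *Srf* to 1680 for *Acta2* in controls. Their log2 fold changes between the genotypes were -0.06 for *Myl6*, -0.03 for *Srf*, 0.03 for *Acta2*, 0.10 for *Myl9* and 0.53 for *Ldb3*, and that of *Vcl*, which also holds a box, was 0.04. A match of these letters is a description of the window, and a gene without one may hold the element elsewhere.

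Channels and calcium handling had 5 of 6 values above 0, with a median log2 fold change of 0.07. *Pln*, which encodes phospholamban, the inhibitor of the sarcoplasmic calcium pump, was the most variable gene of the list in cKO uteri, with a coefficient of variation of 28%. It is described after its values were seen. Its controls lay close together at 24.5, 23.9, 25.8 and 25.3 CPM, while cKO libraries were at 39.1, 33.4, 18.7 and 33.4 CPM. One cKO library, replicate 3, was below all controls and the other 3 were above them. Its log2 fold change was 0.32 (SE 0.18, adjusted p = 0.348 in edgeR), and 0.50 without cKO replicate 3, with an adjusted p of 0.00494, and over all alternatives the adjusted p reached 0.613. *Cacna1h*, a T-type calcium channel gene also described after its values were seen, was at 21.2, 33.5, 15.3 and 17.6 CPM in controls and 26.3, 26.4, 23.9 and 21.8 CPM in cKO uteri. Control replicate 2 was above every other library, and the log2 fold change of 0.17 (adjusted p = 0.692 in edgeR) was 0.45 without it, with an adjusted p of 0.0352 that reached 0.9996 over the alternatives.

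The large-conductance potassium channel, which damps excitability, is encoded by *Kcnma1* (pore) and *Kcnmb1* (smooth muscle beta subunit). *Kcnma1* averaged 24.2 ± 2.09 CPM over the controls and 21.0 ± 2.26 CPM over the cKO libraries (SD, n = 4 each), and *Kcnmb1* 28.0 ± 1.62 and 29.3 ± 4.44 CPM. Adjusted p-values in edgeR were 0.223 and 0.730. *Cacna1c*, the L-type channel that admits calcium for contraction, had the smallest difference of the list, with a ratio of 1.00 and a 95% interval of 0.893 to 1.12. *Jph2*, which holds the sarcoplasmic reticulum to the membrane, had a ratio of 1.06 (0.961 to 1.16).

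Genes of the labouring uterus were already detectable at PD10. *Oxtr* (Entrez 18430, chr6:112473683-112491035) encodes the oxytocin receptor. It was at 1.92, 2.48, 1.25 and 1.54 CPM in controls and 1.79, 1.61, 2.06 and 1.02 CPM in cKO uteri. The genotypes overlapped over most of their range, and the ratio of 0.907 had the widest interval of the list, 0.613 to 1.34 (adjusted p = 0.795 in edgeR). A difference within this interval was not detectable with these libraries, in which the coefficient of variation of *Oxtr* was 29.5% in controls and 27.4% in cKO uteri. *Gja1* (Entrez 14609, chr10:56377300-56390419) encodes connexin 43, the gap junction protein that couples muscle cells. It was at 119, 98.8, 117 and 129 CPM in controls and at 129.8, 126, 149 and 152 CPM in cKO uteri. Control replicate 4 lay above cKO replicate 2 and below the other 3 cKO libraries. The log2 fold change was 0.26 (SE 0.09, adjusted p = 0.102 in edgeR). For *Gja1* the adjusted p was 0.0213 in edgeR with a replicate block, 0.0585 in DESeq2 and 0.111 in limma-voom. Unlike most of the list, *Gja1* was at its lowest in control replicate 2. The remaining gene, *Mustn1*, a small nuclear protein gene of the musculoskeletal system, was at 16.3 ± 3.05 and 16.7 ± 3.20 CPM (SD, n = 4 each).

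Other genes of smooth muscle contraction, in 4 lists that hold none of the 35, did include changed genes. Of 95 tested of 98, 8 passed the adjusted p-value in edgeR (8.42%, against 5.34% of all genes), 5 higher and 3 lower in cKO, and 0 of them changed by more than 2-fold. Without the 3 cKO libraries that are high in fat markers, which leaves 1 cKO library and was chosen after seeing the data, 0 of them passed, and 35 of all 16122 genes tested did (0.217%). The log2 fold changes in that fit were -0.39 for *Ano1*, 0.77 for *Ptger3*, 0.83 for *Adra1d* and -0.55 for *Ptger4*, close to those given below. They were smaller for *Gata6* (0.38), *Ptgfr* (-0.37), *Ryr3* (0.35) and *Npr1* (0.11). Among 29 other attachment and cytoskeleton genes 0 passed in edgeR, with 3 at an unadjusted p under 0.05, while DESeq2 called 1 and limma-voom 0. The largest difference there, named after its values were seen, was that of *Sgcd*, a sarcoglycan of the dystrophin complex (log2 fold change -0.61, adjusted p = 0.0660).

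Receptors of agonists that contract or relax smooth muscle had 5 of 20 past the adjusted p-value (25%, against 5.34% of all genes), 3 higher and 2 lower (2.62% and 2.71% of all genes). *Adra1d*, an alpha 1 adrenergic receptor that couples to contraction, rose from 6.84, 7.50, 6.35 and 7.77 CPM to 12.7, 11.3, 14.4 and 12.6 CPM, with a log2 fold change of 0.84 (SE 0.11, adjusted p = 0.000704 in edgeR). *Ptger3*, a contractile receptor of prostaglandin E, rose from 26.0, 26.7, 28.7 and 34.8 CPM to 44.5, 52.7, 48.5 and 49.5 CPM, with a log2 fold change of 0.75 (adjusted p = 0.000533 in edgeR). Both were separate between the genotypes.

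In the other direction, *Ptgfr*, the contractile receptor of prostaglandin F, fell from 28.6, 31.6, 27.1 and 22.6 CPM to 16.3, 16.8, 18.3 and 21.1 CPM (log2 fold change -0.60, adjusted p = 0.00741 in edgeR). *Ptger4*, a relaxing receptor of prostaglandin E, fell from 23.7, 32.8, 21.5 and 20.0 CPM to 15.7, 15.7, 14.3 and 16.6 CPM (log2 fold change -0.65, adjusted p = 0.0177 in edgeR). Neither overlapped between the genotypes. The adjusted p of *Ptger4* was 0.0507 without control replicate 1, 0.0596 without cKO replicate 1 and 0.0586 without cKO replicate 3. The fifth receptor, *Npr1*, a natriuretic peptide receptor that relaxes through cyclic GMP, is outside the naming rule and is given after its values were seen (log2 fold change 0.37, adjusted p = 0.0468 in edgeR). It passed in 10 of 20 settings only, and failed without each of control replicates 1, 3 and 4 and cKO replicates 1, 2 and 3 (adjusted p from 0.105 to 0.137).

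Of 33 other contraction signalling genes 2 passed (6.06%), a share near the 5.34% of all genes. *Ano1*, a calcium-activated chloride channel that depolarises smooth muscle, fell from 268, 255, 249 and 252 CPM to 180.2, 202, 201 and 194 CPM, a log2 fold change of -0.40 (SE 0.06, adjusted p = 0.00118 in edgeR) with no overlap. *Ryr3*, a calcium release channel, rose from 14.3, 17.4, 11.7 and 14.4 CPM to 25.4, 25.2, 17.5 and 18.4 CPM, a log2 fold change of 0.58 (adjusted p = 0.0447 in edgeR). It passed in 13 of 20 settings, and its adjusted p was 0.0507 in limma-voom and over the threshold without each of control replicates 1, 3 and 4 and cKO replicates 1 and 2 (adjusted p from 0.0900 to 0.128). Among 13 tested transcription regulators 1 passed (7.69%, also near that share), *Gata6*, a zinc finger factor of smooth muscle, which rose from 17.3, 17.6, 18.1 and 18.7 CPM to 33.8, 31.6, 29.8 and 23.1 CPM (log2 fold change 0.73, adjusted p = 0.00144 in edgeR). The highest levels of *Gata6* were in the 3 cKO libraries high in fat markers, and its log2 fold change without them was 0.38 (adjusted p = 0.355 in edgeR), a link that was not tested. All of these genes are also transcribed in cells other than smooth muscle, and the cell of origin cannot be told from whole uterus.

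**Figure D5:**
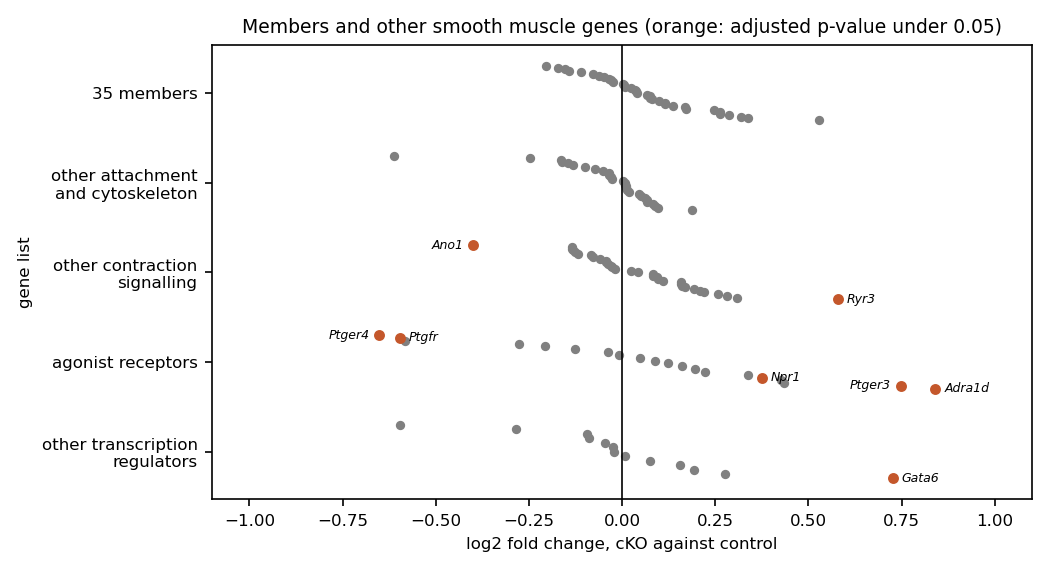
Log2 fold change of cKO against control for the 35 smooth muscle genes and for 4 lists of other smooth muscle genes, 1 point per gene, sorted within each row, with genes past an adjusted p-value of 0.05 in orange and named. No point of the 35 is orange, and the 8 orange points span -0.65 (*Ptger4*) to 0.84 (*Adra1d*).

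Markers of other cell types that the uterus holds were read beside these values, against 5.34% of all genes past the adjusted p-value in edgeR and 9.04% in DESeq2. Vascular mural cells share the contractile genes, and their own markers had 1 of 12 past the adjusted p-value (*Higd1b*, log2 fold change 0.95, with a control mean of 1.23 CPM). Of the 12 mural markers, 9 had values below 0, and the median log2 fold change was -0.08. Mural markers summed to 1332 to 1847 CPM in controls and 1308 to 1627 CPM in cKO uteri. Stromal fibroblast markers had 4 of 11, with *Col3a1* higher and *Hoxa10*, *Hoxa11* and *Twist2* lower, and their sums were 10210 to 13260 CPM in controls and 12070 to 15430 CPM in cKO uteri. Fat markers had 1 of 8 tested past it in edgeR (*Adrb3*) and 7 of 8 in DESeq2. They summed to 108 to 126 CPM in controls, of which *Lpl* made 98.0 to 109 CPM, against 253, 448, 255 and 119.5 CPM in cKO replicates 1 to 4. The fat genes *Adipoq*, *Fabp4*, *Plin1*, *Cidec* and *Cfd* had log2 fold changes from 5.08 to 6.07, and did not pass in edgeR (adjusted p from 0.0573 to 0.0897). They were at 0 to 1.43 CPM in controls and at 0.0350 to 1.61 CPM in cKO replicate 4. Their fold changes were thus carried by cKO replicates 1 to 3. Epithelial markers had 0 of 9 and endothelial markers 0 of 7 in edgeR, with 3 in each list at an unadjusted p under 0.05 (33.3% and 42.9%, against 21.2% of all genes). Values were above 0 for 9 of 9 epithelial and 6 of 7 endothelial markers, and the median log2 fold changes were 0.18 and 0.19. DESeq2 called 1 epithelial and 0 endothelial markers, and limma-voom called 0 of both. With the 3 cKO libraries high in fat markers left out, 0 of the 35 smooth muscle genes passed in edgeR, where 0.217% of all genes did, so that this count says little. In that fit 3 of the 35 had an unadjusted p under 0.05, and the log2 fold change of 12 had the other sign. The part of these cell types in the smooth muscle values was not tested.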

How the data were processed

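Libraries were made with a stranded mRNA kit from whole uteri. Per the submitters' processing notes the authors used Trimmomatic, FastQC, HISAT2, featureCounts and edgeR with GRCm38. Tool versions, the annotation release, the strand setting and the handling of reads that match several genes are not given in the sources used here, which leaves antisense, overlapping and highly similar genes uncertain. The authors deposited unnormalized counts by Entrez gene, 1 file a library, and these were analysed. From their deposited comparison table only gene symbols were taken, and its log2 fold changes, average log2 CPM, F score and p-values were not. A deposited table of normalized log2 values was not used either.

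The filter (CPM above 0.2 in 4 or more libraries), TMM scaling and robust = TRUE follow the study's methods, which name edgeR but not its test. Here glmQLFit and glmQLFTest were run in R 4.3.3 with edgeR 4.0.16. Genotype was the only term, with Benjamini-Hochberg adjustment over the 16658 genes tested. The prior count for fold changes was 0.125. The SE of a log2 fold change was derived from it and the F statistic. CPM are TMM-scaled. The fit was tested on simulated data. DESeq2 1.42.0 and limma 3.58.1, other scalings, other filters, a replicate block and leaving out each library were alternatives. Exon lengths were unions of exons in GENCODE M21, and promoters came from RefSeq.

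The 35 genes and all other lists were chosen with earlier results of these data known, and no test over a list was made. Of the 35 genes, library values were to be given for any past the adjusted p-value or over 1.5-fold and for *Acta2*, *Actg2*, *Myh11*, *Cnn1*, *Tagln*, *Des*, *Myocd*, *Srf*, *Oxtr* and *Gja1*, and up to 4 genes past the adjusted p-value were named per other list. The 28 library pairs differed by more than sampling noise (chi-square per gene 7.44 to 30.0). A library was to be flagged for a gene where its gap to the next exceeded 0.829 of its group's range. Over the 35 genes and 12 called genes of other lists, 0 of 94 groups of 4 libraries were flagged. Leaving out a library shows how far it moves a value and does not mark it as an outlier. Limits from counts cover counting error only.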

Additional observations from a re-analysis of the deposited data

How the results depend on the processing

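Over 19 alternatives to the edgeR fit, 17 of them planned and 2 chosen after seeing the data, the median log2 fold change of the 35 smooth muscle genes (0.04) moved by less than the spread between samples, from -0.01 to 0.12, and 0 of the genes were past 2-fold in each. The number past the adjusted p-value, 0 in the reported fit, was 2 in DESeq2, 3 with a replicate block and 0 to 4 when 1 library was left out, with 4 without control replicate 2 (*Myh11*, *Ppp1r14a*, *Des*, *Cacna1h*) and 2 without cKO replicate 3 (*Actg2*, *Pln*). It was 0 under every other alternative. For the 4 other smooth muscle lists the number, 8, became 13 with the replicate block, 12 in DESeq2, 11 without a filter on low counts, 6 in limma-voom, 5 to 10 when 1 library was left out, with 5 without control replicate 1 or cKO replicate 1, and 0 without the 3 cKO libraries high in fat markers, where the lone cKO library is assumed to vary like the controls and the log2 fold changes of *Gata6*, *Ptgfr*, *Ryr3* and *Npr1* shrank by over 1.5 times. Of all genes, 889 (5.34%) passed in the reported fit, 1506 (9.04%) in DESeq2, 1240 (7.44%) with the block, 947 (5.72%) without control replicate 2, 393 without control replicate 1, 571 without control replicate 3, 452, 485, 523 and 1773 without cKO replicates 1 to 4 (3.17% without cKO replicate 3), and 35 without the 3 libraries. Deviations of same-numbered libraries had correlations of -0.00026 to 0.19, over 0.1 in 2 of 4 pairs, and 1 of 4 controls was closest to its own number. With 4 pairs this cannot decide whether same-numbered libraries were paired. The block in edgeR added calls in *Ppp1r14a*, *Des* and *Gja1* (adjusted p of 0.0437, 0.0162 and 0.0213). The sign differed from the reported one somewhere for 15 of the 35 genes, all with a log2 fold change of at most 0.14 in size, and 20 kept theirs. Scaling by the smooth muscle genes moved the median of all genes to -0.06. The causes of these changes were not tested. Ranges of adjusted p over all alternatives, given above for single genes, include the fit that leaves 1 cKO library. Counts were lowest for *Oxtr*, at 29 to 67 per library.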
